A study of Mus musculus with 6 samples.

Results

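The cyclin-dependent kinase inhibitors are the 7 mouse genes Cdkn1a, Cdkn1b, Cdkn1c, Cdkn2a, Cdkn2b, Cdkn2c and Cdkn2d, and they were taken by name from the 53801 genes in the count tables. All 7 had a row in each of the 6 libraries. They were counted in MC3T3-E1, a pre-osteoblast line from mouse calvaria, whose cells carried a lentivirus with either a scrambled non-silencing RNA (Control, 3 libraries) or an Hdac4-shRNA (Hdac4-knockdown, 3 libraries). Both groups were exposed to virus and polybrene for 12 h, recovered for 48 h and were selected in 5 µg/mL puromycin for 7 days, so that the vector and the drug are shared by the groups. The 3 RNA samples of a group are described as independent, but not as separate infections. If they came from 1 infected population, the p-values measure the spread between samplings of that population only.

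Cyclin-dependent kinases drive the cell cycle when bound to a cyclin, and the inhibitors bind them to hold that activity back. The Cip/Kip inhibitors p21 (Cdkn1a), p27 (Cdkn1b) and p57 (Cdkn1c) bind complexes of several cyclins and kinases, whereas the INK4 inhibitors p16 (Cdkn2a), p15 (Cdkn2b), p18 (Cdkn2c) and p19 (Cdkn2d) bind CDK4 and CDK6 and keep them from the D cyclins. In osteoblast precursors, as in other cells, leaving the cycle usually accompanies differentiation, and the 7 genes answer to different upstream signals.

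Both hairpin targets are shown because the comparison rests on them. The study names Hdac4-shRNA3 as the hairpin of the sequenced cells, while the sample labels give only an Hdac4-shRNA. The Hdac4 hairpin sequence of 21 bases was found whole in 3 annotated transcripts, all of Hdac4, and in none of the 21 transcripts of the inhibitors. The scrambled sequence of 19 bases was in no annotated mouse transcript.
Hdac4-shRNA3: gcatgaggcacagttgcatga
scrambled: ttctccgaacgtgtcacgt

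Promoter windows of 250 bases before a start site were found in RefSeq (GRCm38.p6) for 6 of the 7 inhibitors, at 9 start sites. Each was searched on both strands for GGGCGG (a GC box, to which Sp1 and Klf factors bind), CACGTG (the E box of Myc), TTTCCCGC and TTTGGCGC (E2F), TATAAA (the TATA box), GTAAACA (forkhead factors, among them Foxo), TGACTCA (AP-1), TGACGTCA (CREB and ATF) and for the p53 response element, read as 20 bases with at most 1 mismatch. The windows printed, with annotated exon bases left off, are the distal start of Cdkn1a, the start of Cdkn1b, both starts of Cdkn2a and the start of Cdkn2b. They were chosen because the only rise among the tested inhibitors and the undetected Cdkn2a and Cdkn2b genes belong to them, and Cdkn1b for contrast. Capitals mark the motifs found.
Cdkn1a, distal start, chr17:29090729-29090975, plus strand: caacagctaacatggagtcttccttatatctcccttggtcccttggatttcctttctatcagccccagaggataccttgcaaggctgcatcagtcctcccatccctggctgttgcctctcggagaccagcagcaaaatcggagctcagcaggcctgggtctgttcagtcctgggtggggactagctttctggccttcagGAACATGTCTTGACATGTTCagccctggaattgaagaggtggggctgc
Cdkn1b, chr6:134920151-134920400, plus strand: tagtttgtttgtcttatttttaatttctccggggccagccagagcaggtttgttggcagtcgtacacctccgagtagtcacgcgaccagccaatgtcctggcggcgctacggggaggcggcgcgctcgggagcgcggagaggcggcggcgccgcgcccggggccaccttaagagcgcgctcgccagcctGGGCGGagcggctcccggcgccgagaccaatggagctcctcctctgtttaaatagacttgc
Cdkn2a, inner start (p16), chr4:89282193-89282442, minus strand: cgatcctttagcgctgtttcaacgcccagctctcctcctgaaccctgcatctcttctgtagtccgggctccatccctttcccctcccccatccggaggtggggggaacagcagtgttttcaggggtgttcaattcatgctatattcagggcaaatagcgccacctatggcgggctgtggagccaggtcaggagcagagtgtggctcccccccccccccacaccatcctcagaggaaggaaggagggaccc
Cdkn2a, outer start (p19Arf), chr4:89294654-89294869, minus strand: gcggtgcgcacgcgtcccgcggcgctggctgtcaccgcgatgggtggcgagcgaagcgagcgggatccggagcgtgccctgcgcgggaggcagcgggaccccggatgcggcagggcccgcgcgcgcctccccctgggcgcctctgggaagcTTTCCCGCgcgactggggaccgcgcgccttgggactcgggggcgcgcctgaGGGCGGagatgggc
Cdkn2b, chr4:89311040-89311282, minus strand: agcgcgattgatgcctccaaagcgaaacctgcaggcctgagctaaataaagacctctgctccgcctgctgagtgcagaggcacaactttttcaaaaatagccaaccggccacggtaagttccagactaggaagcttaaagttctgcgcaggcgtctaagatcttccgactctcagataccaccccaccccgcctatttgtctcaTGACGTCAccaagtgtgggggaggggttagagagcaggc

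The capitals in the Cdkn1a window are the p53 response element, with 1 mismatch, at 51 bases before the RefSeq start. Such an element was in 0.058% of the 32817 promoter windows searched and in no other inhibitor window. The capitals in the Cdkn1b window are a GC box, which 32.7% of all windows hold. The outer Cdkn2a window holds TTTCCCGC, found in 0.893% of windows, and 2 GC boxes, of which 1 is in the printed bases, and the Cdkn2b window holds TGACGTCA, found in 1.55%. None of the 9 motifs was in the inner Cdkn2a window. Among the windows not printed, the second Cdkn1a start held 2 GC boxes, the outer Cdkn2c start held 3 and the Cdkn2d start held 3. The Cdkn1b window was 64.4% G and C with 28 CpG and the outer Cdkn2a window 78.4% with 40 CpG, against medians of 52.4% and 6 CpG over all windows. A match is a stretch of letters and was not tested as a binding site in these cells.

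The 6 libraries held 29096544 to 31651826 counts on genes. Reads in no annotated feature made up 3.17 to 3.41% of a Control library and 4.64 to 5.07% of an Hdac4-knockdown library. Hdac4 stood at 73.6% of Control (log2 fold change -0.44, SE 0.057, edgeR adjusted p = 8.98e-07). The cells differed in much else, and with 1 hairpin against 1 control, other differences between the infected cells cannot be told apart from the knockdown in any fold change given here. Of 14531 genes tested, 75.1% passed the call in one direction or the other, 38.0% upwards and 37.1% downwards, and in 76.8% the groups did not overlap. The osteoblast list summed to 4782 to 4796 normalised counts (CPM, per 1e6 counts) in Control and 21460 to 22295 in knockdown, with 5 genes up, 1 down and 1 not called of 7 tested out of 12. The sum followed the collagen genes Col1a1 (338 and 11015 CPM) and Col1a2 (1213 and 8572 CPM), while Spp1, most of the Control sum, fell from 3154 to 2046 CPM. Runx2 was at 69.9 and 79.5 CPM, with groups that overlapped, and Dmp1 at 3.58 and 20.9 CPM, each called up. Of its other genes, Alpl had at most 3 counts in any library, Sost had 0, and Sp7 had 2 to 7 counts in Control and 68 to 112 in knockdown. The summed muscle list was 895 to 931 CPM in Control and 127 to 146 in knockdown (5 of 5 down, Myod1 among them), and the neural list 626 to 645 and 85.4 to 94.1 (5 of 5 down). The neural gene Nefl had 7696, 7175 and 7347 counts in Control and 2, 1 and 0 in knockdown. The fat list summed to 43.1 to 46.8 and 8.89 to 10.1 CPM (2 of 2 tested down), and the cartilage list to 125 to 128 and 168 to 185 (1 of 2 up). Endothelial genes summed to 0.196 to 0.334 and 2.49 to 2.82 CPM (1 of 1 up), blood genes to 1.40 to 2.49 and 2.09 to 2.48, and epithelial genes to 0.491 to 0.969 and 0.565 to 0.905, with none of the blood or epithelial genes called. The lists that differ between groups move with every inhibitor result below, and their part in those results was not tested.

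The inhibitors did not move as a family. Cdkn1a rose 2.13-fold, Cdkn2d fell to 29.7% of its Control level, and Cdkn1b and Cdkn2c fell to 77.7% and 76.8%. Cdkn1c, Cdkn2a and Cdkn2b had at most 2 counts in any library. These are bulk samples, in which fewer cells that express a gene and less of its RNA per cell cannot be told apart. Of the 4 genes with enough counts to be tested, 1 rose and 3 fell. All 4 thus passed the call, and in all 4 the groups did not overlap, beside 75.1% and 76.8% of all genes tested. These shares are high enough that a call alone says little about an inhibitor, so the sizes are given below.

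**Figure D1:**
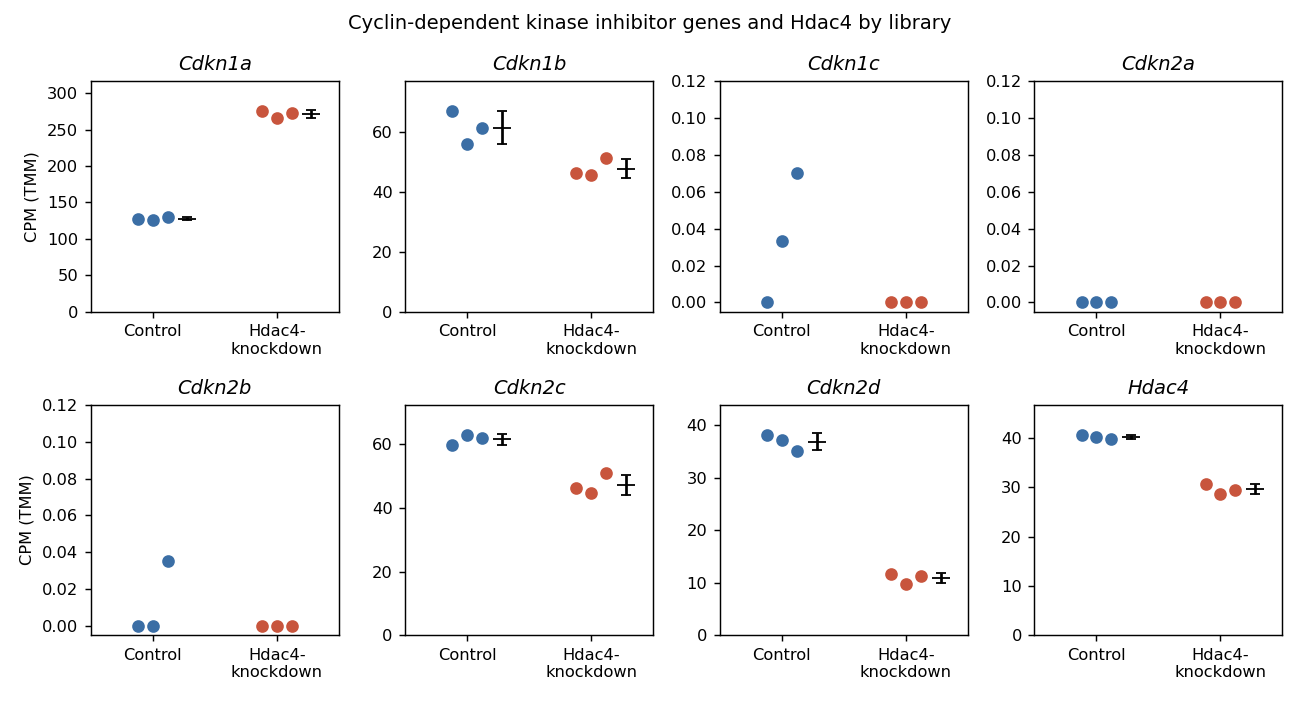
Normalised read counts (CPM) of the 7 inhibitors and of Hdac4 in each of the 3 Control (blue) and 3 Hdac4-knockdown (red) libraries, 1 panel a gene with its own linear axis. Points are libraries, and the bars beside them, drawn only for genes with enough counts to test, are the mean and SD. Cdkn1a lies at 126 to 129 in Control and 266 to 275 in knockdown and Cdkn2d at 35.0 to 38.2 and 9.81 to 11.7, while Cdkn1c, Cdkn2a and Cdkn2b lie under the floor of 0.103 CPM.

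Cdkn1a (ENSMUSG00000023067, chr17:29090976-29100727, plus strand, GRCm38) encodes p21, the inhibitor through which p53 halts the cycle. Its normalised read counts were 128, 126 and 129 CPM in Control and 275, 266 and 273 CPM in knockdown, so the lowest knockdown library was well above the highest Control library. The means were 128 ± 1.89 and 271 ± 4.94 CPM (SD, n = 3), a log2 fold change of 1.09 (SE 0.040, 95% interval 1.01 to 1.17, edgeR adjusted p = 3.31e-15). Among all genes tested, 15.4% had a higher log2 fold change and 25.2% one of larger size in either direction. Cdkn1a was the only tested inhibitor that rose, and many other genes rose by more. A stretch of 273 of its 3553 exon bases is shared with a second annotated gene, AC167363.2, which had no row in the count tables.

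Cdkn1b (ENSMUSG00000003031, chr6:134920401-134925513, plus strand) encodes p27, which accumulates in resting cells and is largely controlled by protein breakdown. It was counted at 67.1, 56.1 and 61.4 CPM in Control and at 46.3, 45.7 and 51.4 CPM in knockdown. The groups did not overlap, but the gap between the lowest Control and the highest knockdown library was smaller than the SD within Control. The fall from 61.5 ± 5.46 to 47.8 ± 3.11 CPM (SD, n = 3) gave a log2 fold change of -0.36 (SE 0.064, 95% interval -0.49 to -0.24, edgeR adjusted p = 4.25e-05). Its size was below the median size of 0.46 over all genes tested.

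Cdkn1c (ENSMUSG00000037664, chr7:143458339-143461050, minus strand) encodes p57 and is an imprinted gene, read mainly from the maternal copy. It had 0, 1 and 2 counts in the Control libraries and 0 in every knockdown library. A total of 3 counts is too few for a test or a fold change. A floor of 3 counts per library equals at most 0.103 CPM, or 0.051 CPM per kilobase of exon (RPKM), before library sizes are scaled. With the scaling used for the other CPM values, the floor reaches 0.105 CPM in Control replicate 3. It covers counting error only, and only for a library with 0 counts, so it is no upper limit where 1 or 2 were seen. Of its exon bases, 625 overlap Gm44732, and reads there may have been set aside as ambiguous. The counts of Cdkn1c may thus be too low, and the RPKM value with them.

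Cdkn2a (ENSMUSG00000044303, chr4:89274471-89294653, minus strand) is the INK4 gene that encodes p16 and, from another start and reading frame, the p53 activator p19Arf. One row covers both products, and it held 0 counts in all 6 libraries. Its neighbour Cdkn2b (ENSMUSG00000073802, chr4:89306299-89311039, minus strand), which encodes the TGF-beta responsive p15, had 0, 0 and 1 counts in Control and 0 in each knockdown library. Before library sizes are scaled, the floor of 3 counts equals at most 0.088 RPKM for Cdkn2a and 0.074 RPKM for Cdkn2b. For the Control library with 1 Cdkn2b count it is no upper limit. Neither gene was detectable at this depth in either group. Being at 3 counts or fewer in every library is not rare, since 32.6% of the 21967 protein-coding genes were.

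Cdkn2c (ENSMUSG00000028551, chr4:109660876-109667189, minus strand) encodes p18. Its level was 59.6, 62.9 and 61.9 CPM in Control and 46.1, 44.7 and 50.8 CPM in knockdown, with no overlap between the groups. The means of 61.4 ± 1.68 and 47.2 ± 3.18 CPM (SD, n = 3) gave a log2 fold change of -0.38 (SE 0.056, 95% interval -0.49 to -0.27, edgeR adjusted p = 4.63e-06). Like that of Cdkn1b, this fall was smaller than the median size over all genes tested.

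Cdkn2d (ENSMUSG00000096472, chr9:21288410-21291407, minus strand) encodes p19 of the INK4 family, a different protein from p19Arf. It had 1166, 1115 and 998 counts in Control and 363, 316 and 340 in knockdown, or 38.2, 37.3 and 35.0 CPM against 11.7, 9.81 and 11.3 CPM. Every knockdown library was below every Control library by a wide margin. The means were 36.8 ± 1.62 and 10.9 ± 1.01 CPM (SD, n = 3), and the log2 fold change was -1.75 (SE 0.077, 95% interval -1.90 to -1.60, edgeR adjusted p = 5.73e-14). Only 5.54% of all genes tested had a lower log2 fold change, which makes this the change furthest out among the inhibitors.

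The inhibitors were next compared with each other per exon length. In Control, Cdkn1a was highest at 35.9 ± 0.531 RPKM, followed by Cdkn2d at 23.4 ± 1.03, Cdkn2c at 22.9 ± 0.625 and Cdkn1b at 13.5 ± 1.20 RPKM (SD, n = 3). Cdkn2d and Cdkn2c could not be ordered, as their Control libraries overlapped, from 22.2 to 24.2 and from 22.2 to 23.4 RPKM. In knockdown the order was Cdkn1a at 76.4 ± 1.39, Cdkn2c at 17.6 ± 1.19, Cdkn1b at 10.5 ± 0.684 and Cdkn2d at 6.95 ± 0.642 RPKM, with no overlap between neighbours. Cdkn2d thus went from overlapping Cdkn2c to the lowest of the inhibitors that were detected.

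The summed level of the 7 inhibitors was 95.7 ± 1.23 RPKM in Control and 111 ± 3.30 RPKM in knockdown (SD, n = 3). Cdkn1a made up 37.5 ± 0.638% of that sum in Control and 68.6 ± 1.16% in knockdown. The share of Cdkn2d went from 24.4 ± 0.931% to 6.24 ± 0.430%, that of Cdkn2c from 23.9% to 15.8% and that of Cdkn1b from 14.1% to 9.43%. These levels depend on the length chosen, because the longest Cdkn1a transcript has 2080 of the 3553 exon bases. With the longest transcript, the sum was 126 and 168 RPKM and Cdkn1a made up 48.8% and 77.8% of it.

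**Figure D2:**
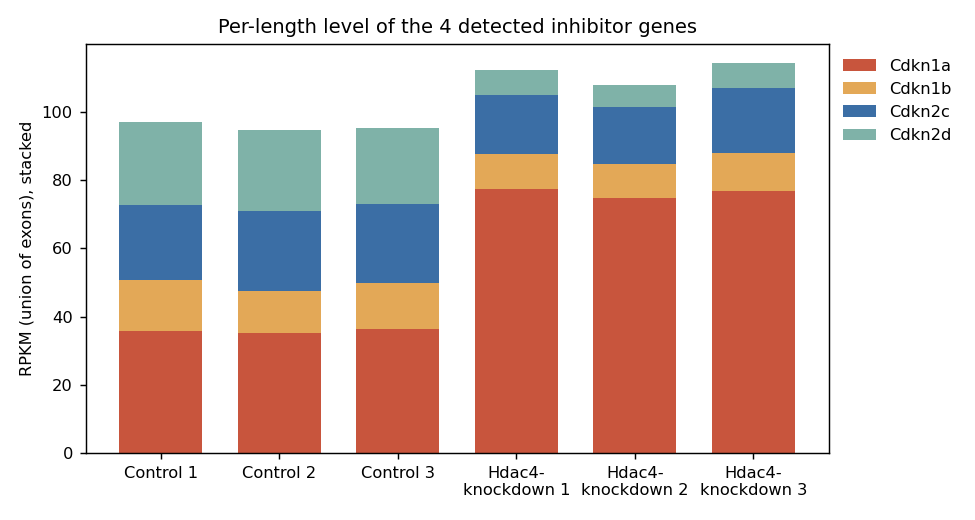
Level per exon length (RPKM, linear axis from 0) of the 4 detected inhibitors, stacked, with 1 bar for each of the 3 Control and 3 Hdac4-knockdown libraries. The Cdkn1a segment averages 35.9 RPKM in Control and 76.4 in knockdown and the Cdkn2d segment 23.4 and 6.95, while the whole bars average 95.7 and 111.

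Ratios between pairs of inhibitors within a library do not depend on the scaling of that library, and 6 pairs were compared. They are ratios of read counts not divided by exon length, so only their change between groups is free of gene length. The log2 ratio of Cdkn1a to Cdkn2d was 1.74, 1.75 and 1.89 in Control and 4.55, 4.76 and 4.59 in knockdown. The counts of Cdkn1a thus went from 3.47 to 24.9 times those of Cdkn2d, a 7.17-fold change. The ratio of Cdkn1a to Cdkn1b went from 2.08 to 5.68 and that of Cdkn1a to Cdkn2c from 2.08 to 5.75. For each of these the groups did not overlap, with an exact two-sided permutation p of 0.1, the smallest that 3 against 3 libraries allow. The ratio of Cdkn1b to Cdkn2c overlapped between groups (exact permutation p = 0.7). The interval of the difference between the log2 fold changes of Cdkn1b and Cdkn2c ran from -0.15 to 0.18, so differences beyond that range lay outside it and smaller ones remain possible. Cdkn2d fell further than Cdkn1b by 1.39 on the log2 scale (95% interval 1.19 to 1.58) and further than Cdkn2c by 1.37 (95% interval 1.18 to 1.56).

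**Figure D3:**
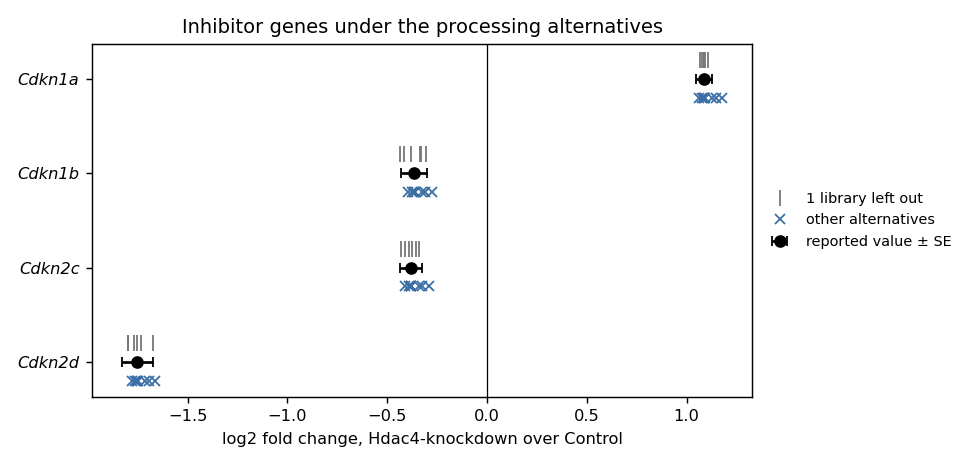
Log2 fold change (Hdac4-knockdown over Control) of Cdkn1a, Cdkn1b, Cdkn2c and Cdkn2d. Black points with bars are the reported values with their SE, grey ticks the values with 1 library left out and blue crosses those of the other alternatives, 14 in all. They run from 1.06 to 1.18 for Cdkn1a, from -0.44 to -0.28 for Cdkn1b, from -0.43 to -0.29 for Cdkn2c and from -1.80 to -1.66 for Cdkn2d.

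The Cdkn2a and Cdkn2b locus was then read gene by gene. Within 1 Mb of it the tables held 68 genes, of which 36 had no count in any library, 18 had 1 to 3 counts at most and 14 had more. A run of 8 neighbouring genes from Cdkn2a to Gm12629, with Cdkn2b and Dmrta1 among them, held 1 count in all 6 libraries together. The flanking genes Gm12606 and Zfp352 lie 945 kb apart, and only the annotated genes between them were counted. On the side of Cdkn2a, reads were found close by. The noncoding gene Gm12606 ends 1.07 kb from Cdkn2a and had 52, 58 and 53 counts in Control and 8, 19 and 6 in knockdown. Its groups did not overlap.

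Mtap, which encodes an enzyme of methionine salvage, lies 93.4 kb from Cdkn2a. It had 8240, 8175 and 7804 counts in Control and 1803, 1807 and 1754 in knockdown. The level fell from 272 ± 2.22 to 57.5 ± 1.27 CPM (SD, n = 3), a log2 fold change of -2.24 (SE 0.043, edgeR adjusted p = 9.76e-20). Beyond Mtap the tested genes were mixed. Wincr1 rose by 2.55 (SE 0.19, edgeR adjusted p = 3.46e-10), and Mrpl48-ps and Focad fell by 1.91 (SE 0.20) and 0.17 (SE 0.063). Gm12602, Mir31, Klhl9 and Hacd4 were not called. On the far side, Zfp352 lies 908 kb beyond Cdkn2b. It had 0 counts in each Control library and 23, 20 and 21 in knockdown, at least 6.79-fold higher against a floor of 3 counts per library. Genes with at least 1 count numbered 19373 to 19797 in a Control library and 22148 to 22640 in a knockdown library. Counts seen in knockdown alone were thus not particular to this flank. Genes with counts thus flanked the locus on both sides in knockdown and on the Mtap side in Control. Counts of RNA cannot tell a deleted stretch of DNA from one that is present and not transcribed.

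**Figure D4:**
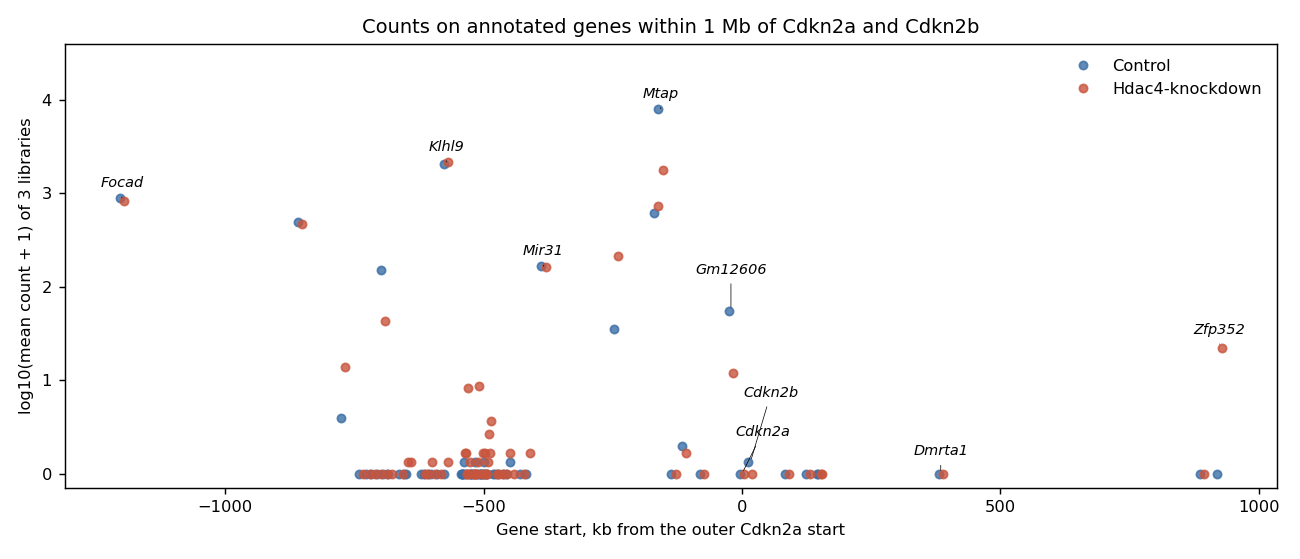
Mean raw count of 3 libraries, as log10 of the mean plus 1, of the genes within 1 Mb of Cdkn2a and Cdkn2b in Control (blue) and Hdac4-knockdown (red), against the distance of the gene's start from the outer Cdkn2a start in kb. The points of the groups are set slightly to either side of that distance. Mtap and Gm12606 stand above 0 in both groups and Zfp352 in knockdown, and the 8 genes from Cdkn2a to Gm12629 held 1 count in all.

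The nearest tested protein-coding genes on each side of the other inhibitors were read in the same way. Beside Cdkn1a, the splicing factor gene Srsf3 fell (log2 fold change -0.55, SE 0.043, edgeR adjusted p = 5.3e-10), and Rab44 had 0.10 (SE 0.53). Beside Cdkn1b, Gpr19 rose by 1.24 (SE 0.15, edgeR adjusted p = 3.34e-07), whereas Ddx47 had 0.035 (SE 0.049). Rnf11 beside Cdkn2c rose by 0.46 (SE 0.043, edgeR adjusted p = 1.12e-08) and Faf1 on its other side fell by 0.46 (SE 0.059, edgeR adjusted p = 8.36e-07). The gene nearest to Cdkn2d, Kri1, is 0.441 kb away and had a log2 fold change of -0.030 (SE 0.071, edgeR adjusted p = 0.711), while the choline transporter gene Slc44a2 fell by 1.24 (SE 0.042, edgeR adjusted p = 1e-15). Beside Cdkn1c, Tssc4 had -0.068 (SE 0.073), and Slc22a18 rose by 2.36 (SE 0.60, edgeR adjusted p = 0.00167). Slc22a18 had few counts, 10, 0 and 2 in Control and 17, 32 and 17 in knockdown. With 1 library left out its value ran from 1.77 to 4.20, the last without Control replicate 1. Of these neighbours, 1 of Cdkn2c (Faf1) and 1 of Cdkn2d (Slc44a2) thus fell as the inhibitor did, and the 95% interval of Faf1 (-0.58 to -0.34) overlapped that of Cdkn2c.

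The genes whose log2 levels followed each inhibitor most closely over the 6 libraries were sought among 10494 genes, by the root mean square difference of centred values. Likeness of this kind mostly reflects the step between the groups. For Cdkn1a they were Ints5 (0.023), Stard5 (0.026) and Csf1 (0.029), the last a growth factor of macrophages and osteoclasts. For Cdkn1b they were Tipin (0.027), Nr1d2 (0.039) and Uchl3 (0.043), and for Cdkn2c Rrn3 (0.024), Ccdc77 (0.027) and Nudt1 (0.031). For Cdkn2d they were Rnf144b (0.016), Mgst1 (0.021) and Kif23 (0.038), of which Kif23 is needed for cell division.

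The partners and regulators of the inhibitors were read as 8 lists, each beside a median log2 fold change of 0.014 over all genes tested, of which 38.0% were called up and 37.1% down. With that many calls, a count alone says little about a list. Among the D cyclins and their kinases, the direct targets of the INK4 proteins, 1 of 5 genes rose and 3 fell. Ccnd2 rose from 65.5 ± 2.04 to 328 ± 21.1 CPM (log2 fold change 2.32, SE 0.050, edgeR adjusted p = 7.31e-19). Ccnd3 fell by 0.64 (SE 0.049), Cdk6 by 0.45 (SE 0.053) and Cdk4 by 0.21 (SE 0.041) on the log2 scale. Ccnd1, the most abundant D cyclin transcript in CPM, was at 431 ± 2.38 and 409 ± 8.02 CPM (edgeR adjusted p = 0.0697) and was not called. So the D cyclin genes, too, moved in different directions.

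The E, A and B cyclins and their kinases, which p21 and p27 act on, leaned one way. Of 7 tested, 0 rose and 6 fell, with a median log2 fold change of -1.36. Ccnb1, the cyclin of mitosis, fell by 2.00 (SE 0.045) and its kinase gene Cdk1 by 1.60 (SE 0.042). Ccna2 fell from 254 ± 3.34 to 96.2 ± 3.68 CPM, by 1.40 on the log2 scale (SE 0.043). Ccne1 and Ccne2, which act at entry to S phase, fell by less, 0.50 (SE 0.059) and 0.62 (SE 0.067). Ccna1 had 0 counts throughout, and Cdk2 had -0.011 (SE 0.044, edgeR adjusted p = 0.832) and is named here after its value was seen.

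Pocket proteins and E2F factors carry the inhibitors' effect on to S-phase genes, and 11 of 13 fell while 0 rose (median -0.46). E2f8, a repressing member, fell by 1.30 (SE 0.052) and Rbl1 by 0.74 (SE 0.047). Tfdp1 fell by 0.46 (SE 0.041), E2f1 by 0.40 (SE 0.068) and E2f4 by 0.21 (SE 0.042). Of the 12 ubiquitin ligase genes, whose products mark p27 and p21 for breakdown, 4 rose and 6 fell (median -0.12). Cks1b, a cofactor for p27 breakdown, fell by 0.90 (SE 0.045), Rbx1 by 0.60 (SE 0.045), Skp1a by 0.51 (SE 0.040) and Cul4a by 0.17 (SE 0.040), and Ddb1 rose by 0.18 (SE 0.035).

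Cdkn1a is a classic p53 target, and among the 23 genes of p53, its partners and its other targets 16 rose and 5 fell (median 0.57). Trp53 itself fell from 191 ± 3.28 to 150 ± 2.88 CPM (log2 fold change -0.35, SE 0.040, edgeR adjusted p = 2.29e-07). Mdm2, the ligase that p53 induces against itself, rose from 181 ± 6.55 to 324 ± 18.5 CPM (log2 fold change 0.84, SE 0.046, edgeR adjusted p = 2.21e-12), and its relative Mdm4 rose by 0.57 (SE 0.046). Phlda3, an inhibitor of Akt signalling, rose by 1.60 (SE 0.043) and Ccng1 by 0.66 (SE 0.047). Not every target went the same way. Pmaip1, which encodes the cell death protein Noxa, fell by 4.34 (SE 0.13) and Plk2 by 1.04 (SE 0.046), both named after their values were seen.

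Polycomb genes and other regulators of Cdkn2a were mixed, with 8 of 17 up and 6 down (median -0.042), beside 38.0% and 37.1% of all genes tested. The repressor gene Bmi1 rose by 0.39 (SE 0.052), whereas Ezh2 and Suz12, of the complex that methylates histone H3, fell by 0.74 (SE 0.055) and 0.75 (SE 0.063). Ets1 rose by 0.23 (SE 0.045) and Ets2 fell by 0.91 (SE 0.052). Of the 13 promoter factors, 8 rose and 5 fell (median 0.16), but beyond a log2 fold change of 0.5 only 2 rose and 1 fell. Klf4 rose by 0.75 (SE 0.044) and Myc by 0.14 (SE 0.045), while Klf6 fell by 0.73 (SE 0.045), Sp1 by 0.49 (SE 0.043) and Sp3 by 0.46 (SE 0.053).

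In the imprinted domain of Cdkn1c and the domain next to it, 2 of 7 tested genes rose and 4 fell (median -0.21). Kcnq1ot1, the noncoding RNA that silences Cdkn1c on the paternal copy, had 52, 30 and 33 counts in Control and 379, 232 and 307 in knockdown. Its log2 fold change was 2.93 (SE 0.21, edgeR adjusted p = 1.6e-10). H19, a noncoding RNA of the domain beside it, went the other way, from 4742, 4817 and 4382 counts to 628, 708 and 650, a log2 fold change of -2.88 (SE 0.051, edgeR adjusted p = 3.66e-20). Tspan32 fell by 1.10 (SE 0.35), Nap1l4 by 0.28 (SE 0.041) and Cd81 by 0.21 (SE 0.039). Cdkn1c itself had 0 to 2 counts in the Control libraries and 0 in each knockdown library.

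**Figure D5:**
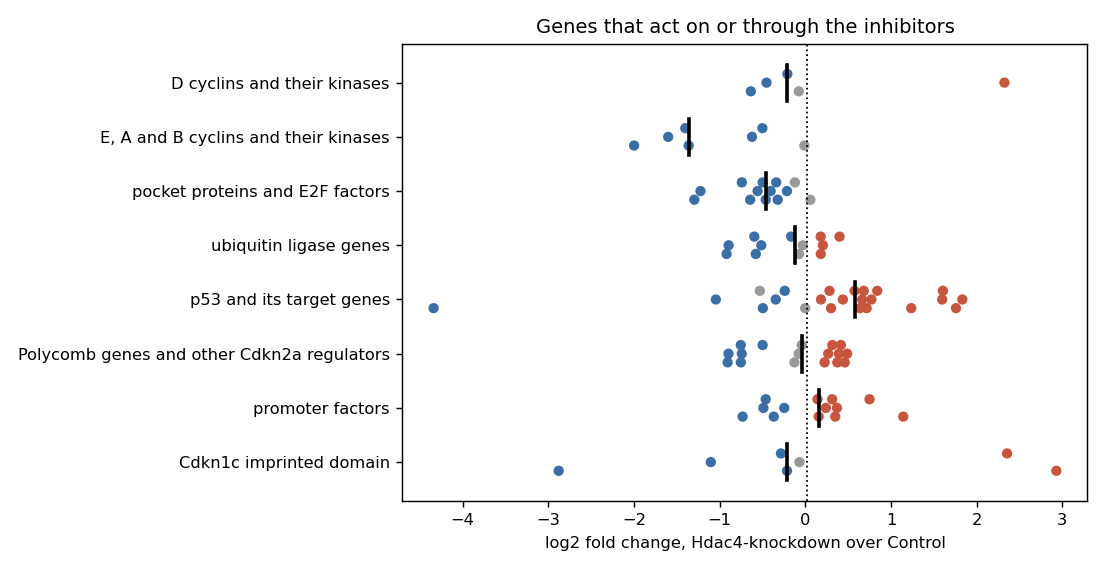
Log2 fold change (Hdac4-knockdown over Control) of every tested gene in the 8 lists of partners and regulators, 1 row a list and 1 point a gene, red where called up, blue where called down and grey where not called. Black bars are the lists' medians, from -1.36 for the E, A and B cyclins and their kinases to 0.57 for p53 and its targets, and the dotted line is the median of 0.014 over all genes tested.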

How the data were processed

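RNA from 6 MC3T3-E1 libraries was sequenced as paired-end, poly-A selected, unstranded libraries. The authors deposited whole-number read counts per gene, 1 table a library, and their processing notes name FastQC, STAR 2.7.3a, HTSeq 0.12.4 and mm10 (GRCm38). The annotation release and strand setting are not given in the sources used here. Rows for reads in no feature, ambiguous or unaligned reads were left out of library sizes. GENCODE M21 gave names, positions and exon lengths (53706 of 53801 identifiers matched).

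Counts were fitted with edgeR 4.0.16 (R 4.3.3): filterByExpr, TMM scaling and the quasi-likelihood F-test over all 14531 genes that passed, Control against Hdac4-knockdown, with Benjamini-Hochberg adjustment. A call needed an adjusted p below 0.05 and a log2 fold change beyond 0.05, the thresholds of the study. CPM and RPKM use TMM library sizes, except that the floors of 0.103 CPM and those in RPKM use library sizes without TMM scaling. Single ratios were compared by exact two-sided permutation tests. The scripts were tested on simulated data. Replicates of a group differed by more than sampling noise. Named list genes were at most 5 a list by mean count, among those called with groups that did not overlap (every gene of a list of up to 6), and the nearest tested neighbours and the 3 most similar genes with at least 100 counts on average were named for each inhibitor. Alternatives used DESeq2 1.42.0 and limma-voom (limma 3.58.1), other scalings, filters and thresholds, a replicate block, and each library left out. The inhibitors and lists were chosen with earlier results of these data known.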

Additional observations from a re-analysis of the deposited data

How the results depend on the processing

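The 4 tested inhibitors kept their direction in every alternative and their call in all but the stricter fold thresholds, with each library left out (1.07 to 1.11 for Cdkn1a, -0.44 to -0.31 for Cdkn1b, -0.43 to -0.34 for Cdkn2c and -1.80 to -1.67 for Cdkn2d) and with DESeq2, limma-voom, other scalings and other filters. The highest adjusted p over these was 0.000769, for Cdkn1b with upper quartile scaling. At a log2 fold change beyond 0.5 or 1, a threshold applied to the inhibitors after seeing the data, 1 inhibitor rose and 1 fell in place of 3. The replicate numbers of the groups did not pair the libraries (correlations of same-numbered deviations -0.011, 0.027 and 0.017), and not every library correlated best with its own number. With a replicate block, Cdkn1a had 1.09, Cdkn1b -0.36, Cdkn2c -0.38 and Cdkn2d -1.75, and calls over all genes went from 5521 up and 5393 down to 5523 and 5441. The block changed no call among the inhibitors, Hdac4, the list genes named by the rule above and the nearest neighbours. Calls of the other genes named here were not compared.

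At thresholds of 0.5 and 1, the list counts moved as follows. D cyclin genes called down went to 1 and 0, pocket and E2F genes down to 5 and 2, and Cdkn1c domain genes down to 2 and 2. Ubiquitin ligase genes up went to 0 and 0, and down to 0 at a threshold of 1. The p53 list had 5 up at a threshold of 1, and 2 and 2 down. Polycomb and Cdkn2a regulator genes up went to 0 and 0, and down to 0 at 1. Promoter factors up went to 2 and 1, and down to 1 and 0. With upper quartile scaling 1 pocket or E2F gene rose, and with at least 10 counts in every library 1 Cdkn1c domain gene did. With the longest transcript as length, Cdkn1a stood at 61.3 and 130.4 RPKM in Control and knockdown, Cdkn2c at 24.9 and 19.1 and Cdkn2d at 25.9 and 7.69.

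Reversals were seen only among values that were not called. Ccnd1 was at 0.014 with upper quartile scaling, and was called with DESeq2, limma-voom and no filter. Kri1 was at 0.00778 with at least 10 counts, 0.027 with library size alone and 0.059 with upper quartile scaling, and Tssc4 at 0.021 with the last. With 1 library left out, Ddx47 ran from -0.0092 to 0.053, Rab44 from -0.22 to 0.47, Tssc4 from -0.16 to 0.0045 and the log2 ratio of Cdkn1b to Cdkn2c from -0.062 to 0.11. Tssc4 was called without Hdac4-knockdown replicate 2 (-0.16, adjusted p = 0.041) and Ddx47 with upper quartile scaling (0.12, adjusted p = 0.0286). The calls of Cul4a (upper quartile) and Myc (no filter, or without Control replicate 2) were lost. The single Cdkn2b count was in Control replicate 3, and without that library Cdkn2b was at 0. The cause of these movements was not tested. Depth limits Cdkn1c, Cdkn2a and Cdkn2b to a statement that they lie under the floor of 3 counts.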
